A study of Mus musculus with 58 samples.

Results

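The disease-associated microglia genes described here are Clec7a, Itgax, Cst7, Trem2, Tyrobp, Lpl, Axl, Spp1, Gpnmb and Cd9. They were chosen by name as the rows of the count table that carry these symbols, and all 10 were found among its 15171 genes. RNA had been sequenced from 58 mice, 29 with traumatic brain injury (TBI) and 29 with sham surgery, to compare the response to injury between APOE isoforms and Abca1 copy numbers. Each library came from hippocampus and cortex frozen together from a slice through the injury site, so it holds neurons, glia and vessels as well as microglia. Each gene's level is given in CPM (counts scaled to library size), adjusted between libraries with edgeR's TMM factors.

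All mice were on the C57BL/6 background, carried human APOE in place of the mouse gene, and were operated on at 3 months of age. The groups combined APOE3 or APOE4 with both copies of Abca1 (Abca1+/+) or a single functional copy (Abca1+/-). Every mouse, sham or injured, was anesthetized and had its skull opened, and the groups called TBI were then hit once on the exposed cortex (controlled cortical impact). Tissue was taken 14 days after surgery. There were 8 sham and 8 TBI mice with E3/Abca1+/+, 7 sham and 6 TBI mice with E3/Abca1+/-, 7 sham and 7 TBI mice with E4/Abca1+/+, and 7 sham and 8 TBI mice with E4/Abca1+/-, with both sexes in every group (30 males and 28 females). Both alleles are carried in every cell of the mouse, so no group isolates microglia.

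Disease-associated microglia are microglia that gather at sites of damage, such as amyloid plaques or dying neurons, and that take up debris and handle its lipids. In the usual account, the receptor TREM2 and its signalling partner TYROBP (DAP12) sense lipids, lipoproteins including APOE, and dying cells, and the cells then turn up genes for phagocytosis, lysosomes and lipid metabolism while lowering homeostatic genes such as P2ry12 and Tmem119. ABCA1 loads lipid onto APOE, which is a ligand of TREM2. Several of the 10 genes are not confined to microglia: Lpl is also made by neurons, Axl and Cd9 by other glia and vessels, and Spp1 by some neurons and by oligodendrocyte precursors.

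The sequences around the start sites are shown for the genes with the largest injury differences (Clec7a, Cst7, Gpnmb and Itgax) and for Trem2, which encodes the sensing receptor described above. They are RefSeq promoters of assembly GRCm38.p6 (mm10), 250 bases before to 20 bases after the start, written on the strand of the gene. Of the 10 genes, 8 had an entry, and these held 10 windows, since Clec7a and Spp1 had 2 start sites each. Capitals mark matches on either strand to GAGGAA (the core bound by PU.1, the factor that defines myeloid cells), CACGTG (the E-box of the lysosomal factors TFEB and TFE3), CATGTG (the M-box of MITF) or TGANTCA (the site of AP-1), with N standing for any base.
Clec7a, chr6:129472760-129473029, minus strand: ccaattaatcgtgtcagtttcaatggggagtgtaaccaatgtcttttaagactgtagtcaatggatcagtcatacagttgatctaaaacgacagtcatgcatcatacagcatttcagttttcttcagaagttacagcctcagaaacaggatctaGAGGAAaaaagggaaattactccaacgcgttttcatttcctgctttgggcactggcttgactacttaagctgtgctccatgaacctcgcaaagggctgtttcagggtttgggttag
Cst7, chr2:150570165-150570434, plus strand: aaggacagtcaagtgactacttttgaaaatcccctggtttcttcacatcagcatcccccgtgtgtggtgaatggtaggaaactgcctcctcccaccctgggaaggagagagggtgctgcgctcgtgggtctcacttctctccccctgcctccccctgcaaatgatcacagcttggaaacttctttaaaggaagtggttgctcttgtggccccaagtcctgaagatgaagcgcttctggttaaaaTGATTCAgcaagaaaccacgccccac
Gpnmb, chr6:49036268-49036537, plus strand: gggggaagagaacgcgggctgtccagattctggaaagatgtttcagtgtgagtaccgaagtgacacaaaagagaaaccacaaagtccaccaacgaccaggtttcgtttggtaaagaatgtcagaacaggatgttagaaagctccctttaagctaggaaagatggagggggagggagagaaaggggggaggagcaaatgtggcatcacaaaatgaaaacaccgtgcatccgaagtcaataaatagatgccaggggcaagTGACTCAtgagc
Itgax, chr7:128129300-128129569, plus strand: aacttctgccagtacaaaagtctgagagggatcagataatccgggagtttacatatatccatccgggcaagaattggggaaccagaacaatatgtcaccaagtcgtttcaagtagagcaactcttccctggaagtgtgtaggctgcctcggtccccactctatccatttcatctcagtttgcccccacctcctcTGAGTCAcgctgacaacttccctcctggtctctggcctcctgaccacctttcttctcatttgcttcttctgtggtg
Trem2, chr17:48346151-48346420, plus strand: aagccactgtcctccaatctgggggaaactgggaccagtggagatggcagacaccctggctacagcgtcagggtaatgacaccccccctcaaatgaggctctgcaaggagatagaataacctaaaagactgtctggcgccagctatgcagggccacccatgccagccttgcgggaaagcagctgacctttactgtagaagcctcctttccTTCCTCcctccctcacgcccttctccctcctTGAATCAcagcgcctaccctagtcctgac
The AP-1 letters were found in 4 of the 10 windows (those of Itgax, Cst7, Trem2 and Gpnmb) and in 7.23% of the 32851 promoters of the same length. They began 6 bases before the start of Cst7, 9 before that of Trem2, 56 before that of Itgax and 8 after that of Gpnmb. The PU.1 core was found in 5 of the 10 windows (both of Clec7a, 1 of the 2 of Spp1, and those of Trem2 and Axl) and in 25.1% of all promoters. The windows of Clec7a overlap and share their match. The M-box letters were present in that of Cd9 alone, against 13.1% of all promoters, and the E-box in 0 of 10, against 6.57%. A match describes these letters only and does not show binding.

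Total counts ranged from 4421308 to 37877346 per mouse, and Abca1+/- libraries (median 18871445, n = 28) were 2.26 times as deep as Abca1+/+ libraries (median 8350020, n = 30), so Abca1 status goes with depth. A pair of libraries stood apart. E4/Abca1+/- sham replicate 2, a male, had a mean log2(CPM + 1) over the 10 genes of 4.65, against at most 3.37 in the other sham mice and at least 4.51 in TBI mice. E4/Abca1+/- TBI replicate 8, a female, had the lowest mean over 6 hippocampal neuron markers, 3.52 against at least 4.22 in the other mice. Values without either mouse are given beside many, but not all, of the results that changed. Markers of hippocampal and cortical neurons, neurons in general, astrocytes, oligodendrocytes and homeostatic microglia were detected, with none at 0 counts in any mouse.

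**Figure D1:**
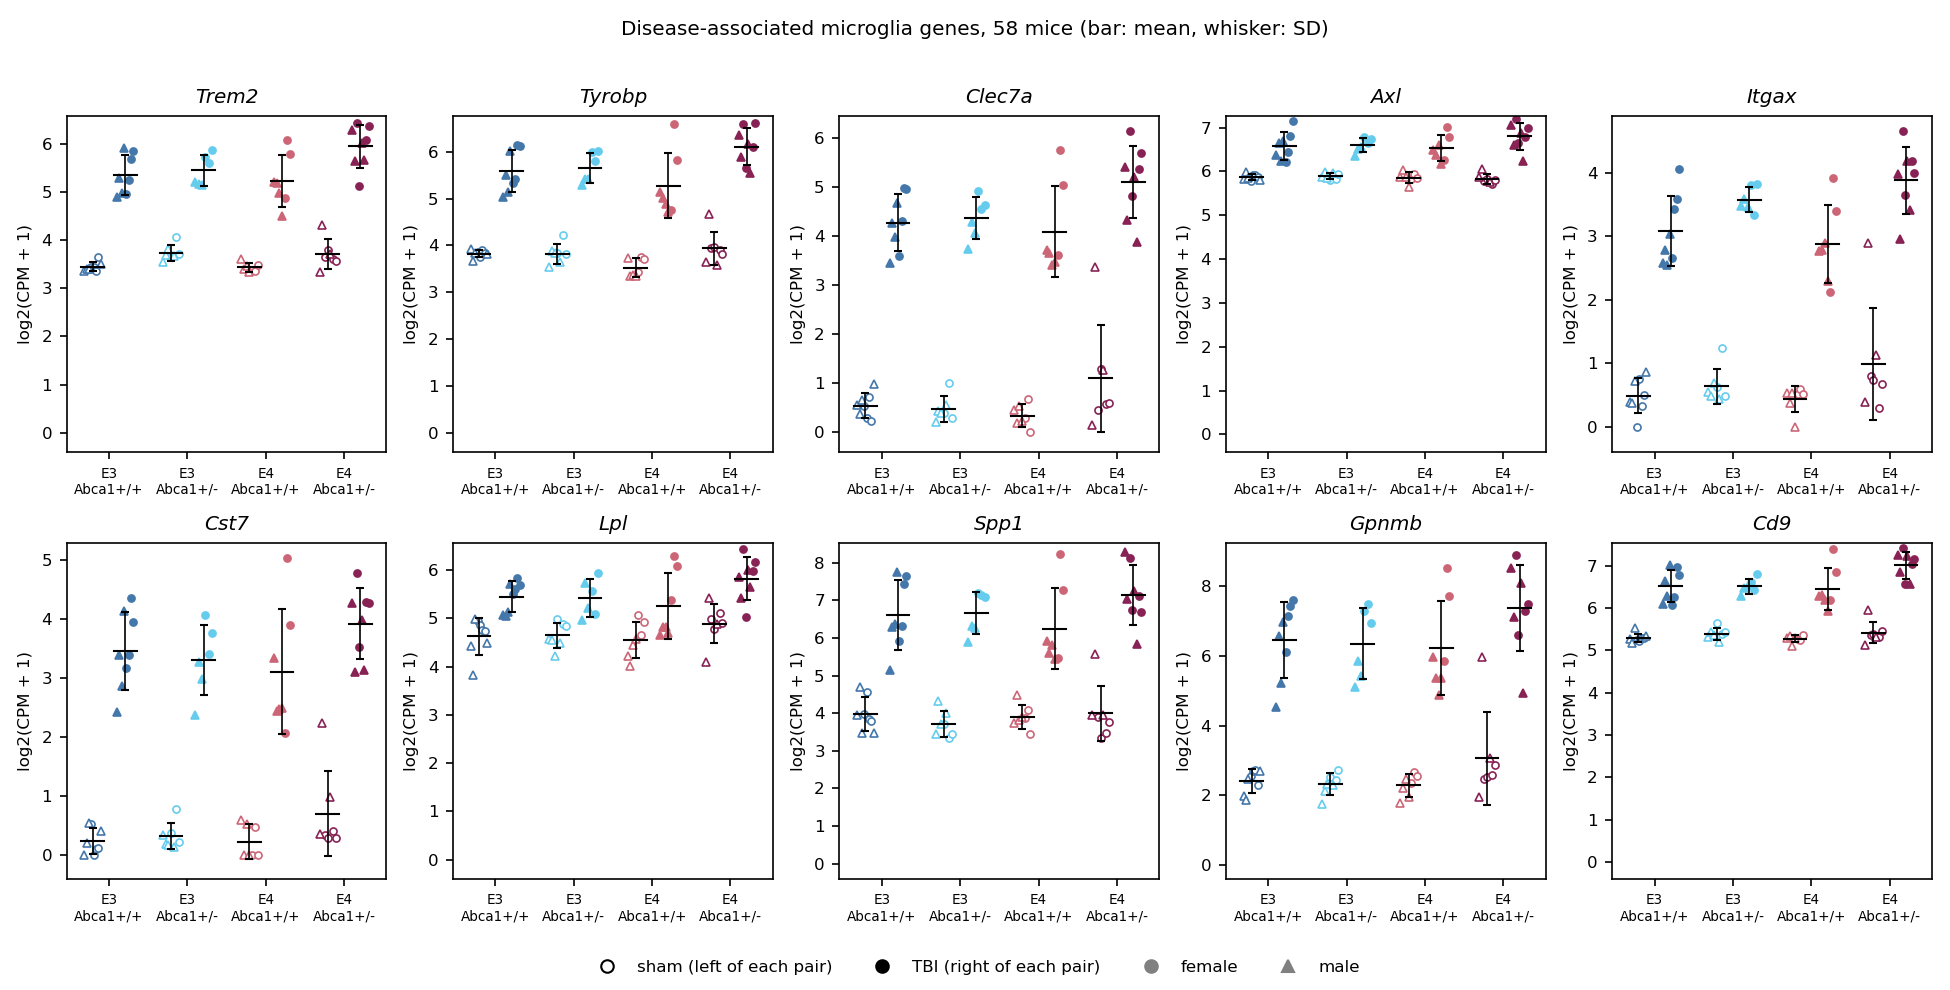
Log2(CPM + 1) of the 10 genes (vertical axis) in every mouse by genotype, with open symbols for sham, filled symbols for TBI, circles for females and triangles for males; bars are group means and whiskers SDs. Within each genotype TBI mice lie above sham mice in every panel except for overlaps in Lpl and for 1 E4/Abca1+/- sham mouse in Gpnmb.

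All 10 genes were higher in TBI than in sham mice in each of the 4 genotypes (edgeR's quasi-likelihood test, adjusted p under 0.05 over all genes, 6 to 8 mice per group). The log2 fold changes had a median of 2.47 in E3/Abca1+/+, 2.49 in E3/Abca1+/-, 2.36 in E4/Abca1+/+ and 2.74 in E4/Abca1+/- mice, whereas the median over all genes was 0.01 or less in size in each. Without E4/Abca1+/- sham replicate 2 the median of the 10 genes in E4/Abca1+/- mice was 3.04. Of all genes tested, 12.5%, 13.7%, 9.08% and 17.7% were called higher in these comparisons. Every TBI mouse lay above every sham mouse for all 10 genes in E3/Abca1+/+, for 9 in E3/Abca1+/-, for 9 in E4/Abca1+/+ and for 8 in E4/Abca1+/- mice, and the share of all genes without such overlap was 4.36%, 6.57%, 3.76% and 7.36%. Because these are whole-tissue libraries, more microglia and more RNA of these genes per microglial cell cannot be told apart.

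Trem2, on chromosome 17 (48346401 to 48354147, plus strand), encodes the sensing receptor described above, and Tyrobp, on chromosome 7 (30413760 to 30417585, plus strand), the adaptor through which it signals. Trem2 lay between 9.09 and 19.1 CPM in sham mice (median 10.7, n = 29) and between 21.7 and 85.4 CPM in TBI mice (median 47.7, n = 29), with no overlap between conditions. Tyrobp lay between 9.12 and 24.6 CPM in sham mice (median 13.2) and between 25.2 and 96.2 CPM in TBI mice (median 49.0), again without overlap. Both were thus readily detected without impact, and both rose about 4-fold. The log2 fold change of Trem2 was 2.05 (SE 0.15, adjusted p = 8.98e-09) in E3/Abca1+/+, 1.82 (SE 0.13, 7.49e-08) in E3/Abca1+/-, 1.96 (SE 0.21, 2.45e-05) in E4/Abca1+/+ and 2.32 (SE 0.19, 4.71e-07) in E4/Abca1+/- mice in edgeR's test. For Tyrobp it ran from 1.88 (SE 0.15) in E3/Abca1+/+ to 2.22 (SE 0.19) in E4/Abca1+/- mice, so that receptor and adaptor moved by similar amounts in each genotype.

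Clec7a, on chromosome 6 (129461591 to 129472779, minus strand), encodes dectin-1, a receptor for fungal glucans that is low in resting microglia. In E3/Abca1+/+ mice it had 0.165 CPM at the lowest, 0.452 at the median and 0.975 at the highest in sham mice, and 9.96, 18.4 and 30.3 CPM in TBI mice. In E3/Abca1+/- mice the same values were 0.151, 0.307 and 1.01 CPM after sham surgery and 12.2, 20.4 and 29 CPM after TBI. Impact therefore separated the groups fully, from a sham level near the limit of detection (35 and 60 counts summed over these sham groups). In E4/Abca1+/+ mice the sham values were 0, 0.215 and 0.601 CPM and the TBI values 9.57, 11.5 and 52.4 CPM. In E4/Abca1+/- mice they were 0.105, 0.507 and 9.37 CPM in sham and 13.7, 37.8 and 69.4 CPM in TBI mice. The top of the E4/Abca1+/+ TBI group was made of 2 females, replicates 6 and 7 (52.4 and 31.8 CPM), above 5 mice between 9.57 and 12.1 CPM. The log2 fold change was 5.33 (SE 0.32) in E3/Abca1+/+, 5.66 (SE 0.28) in E3/Abca1+/-, 6.03 (SE 0.61) in E4/Abca1+/+ and 4.14 (SE 0.61) in E4/Abca1+/- mice, with the largest adjusted p 5.72e-05 in edgeR's test. Without E4/Abca1+/- sham replicate 2, the mouse at 9.37 CPM, the last value was 5.69. The size of the E4/Abca1+/+ value rests on few sham counts, 18 summed over 7 mice.

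Itgax and Cst7 rose from a similarly low level. Itgax, on chromosome 7 (128129547 to 128150657, plus strand), encodes the integrin chain CD11c, a marker of dendritic cells and of activated microglia. It had at most 1.35 CPM in the sham mice other than E4/Abca1+/- replicate 2 (6.43 CPM), whereas TBI mice had between 3.36 and 24.5 CPM (median 9.82). Its log2 fold change was 4.20 (SE 0.34) in E3/Abca1+/+, 4.28 (SE 0.22) in E3/Abca1+/-, 4.16 (SE 0.38) in E4/Abca1+/+ and 3.23 (SE 0.53) in E4/Abca1+/- mice, or 4.51 in the last without sham replicate 2. Cst7, on chromosome 2 (150570415 to 150578944, plus strand), encodes cystatin F, an inhibitor of lysosomal cysteine proteases such as cathepsin C. It was at 0 in 6 of 29 sham mice and had at most 3 counts in 15 of them, and it reached 3.18 to 32.1 CPM in TBI mice (median 9.48). The log2 fold change of Cst7 ran from 4.03 (SE 0.52) in E4/Abca1+/- to 5.68 (SE 0.43) in E3/Abca1+/+ mice, and the former was 5.25 without that sham mouse. Sham counts summed to 15 over 8 E3/Abca1+/+ mice and to 14 over 7 E4/Abca1+/+ mice, so the size of these fold changes rests on few sham counts.

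Gpnmb and Spp1 combined a low sham level with the highest injured levels of the strongly changed genes. Gpnmb, on chromosome 6 (49036546 to 49070929, plus strand), encodes a transmembrane glycoprotein of lysosomes and phagocytes and a target of MITF-family factors. In E3/Abca1+/+ mice it had a lowest, median and highest level of 2.61, 4.69 and 5.56 CPM after sham surgery and of 22.2, 109 and 193 CPM after TBI. In E4/Abca1+/- mice these were 2.87, 5.03 and 62.2 CPM and 29.7, 168 and 475 CPM. The groups of E4/Abca1+/- mice overlapped only through sham replicate 2, since the next sham mouse had 7.42 CPM. The log2 fold change of Gpnmb lay between 3.95 (SE 0.71) in E4/Abca1+/- and 4.83 (SE 0.64) in E4/Abca1+/+ mice, and that of E4/Abca1+/- mice was 5.35 without sham replicate 2. Spp1, on chromosome 5 (104435118 to 104441050, plus strand), encodes osteopontin, a secreted ligand of integrins and CD44. It rose from 9.16 to 47.0 CPM in sham mice (median 13.4) to 34.5 to 310 CPM in TBI mice (median 103), with log2 fold changes between 2.76 (SE 0.44) in E4/Abca1+/+ and 3.16 (SE 0.41) in E4/Abca1+/- mice. The value of E4/Abca1+/- mice was 2.94 to 3.63 in fits that each left out 1 mouse. In each genotype every TBI mouse exceeded every sham mouse for Spp1.

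Cd9, Axl and Lpl were abundant in sham mice and changed least. Cd9, on chromosome 6 (125460266 to 125494791, minus strand), encodes a tetraspanin that organises receptors in membranes. It overlaps annotated genes on the opposite strand, and whether counting used the strand is not stated in the sources used here. Cd9 lay between 33.4 and 60.4 CPM in sham mice (median 38.8) and between 59.9 and 171 CPM in TBI mice (median 94.1), and its log2 fold change ran from 1.15 (SE 0.08) in E3/Abca1+/- to 1.60 (SE 0.14) in E4/Abca1+/- mice. Axl, on chromosome 7 (25757273 to 25788705, minus strand), encodes a TAM receptor tyrosine kinase that binds GAS6 on dying cells. It rose from 48.7 to 65.9 CPM (median 56.7) to 71.3 to 145 CPM (median 98.8) without overlap, a log2 fold change of 0.69 (SE 0.11) to 0.98 (SE 0.11). Lpl, on chromosome 8 (68880491 to 68907448, plus strand), encodes lipoprotein lipase, which releases fatty acids from triglyceride-rich lipoproteins. Its sham mice spread between 13.1 and 41.9 CPM (median 26.0) and its TBI mice between 24.1 and 86.0 CPM (median 46.8), so that sham and TBI mice overlapped in 3 of 4 genotypes. The log2 fold change of Lpl was 0.83 in E3/Abca1+/+ (SE 0.15), E3/Abca1+/- (SE 0.16) and E4/Abca1+/+ mice (SE 0.27, adjusted p = 0.0480 in edgeR's test) and 0.94 (SE 0.20) in E4/Abca1+/- mice. Without TBI replicate 6 the value of E4/Abca1+/+ mice was 0.63 (adjusted p = 0.103), and its call was lost in 8 of 14 fits that each left out 1 mouse.

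**Figure D2:**
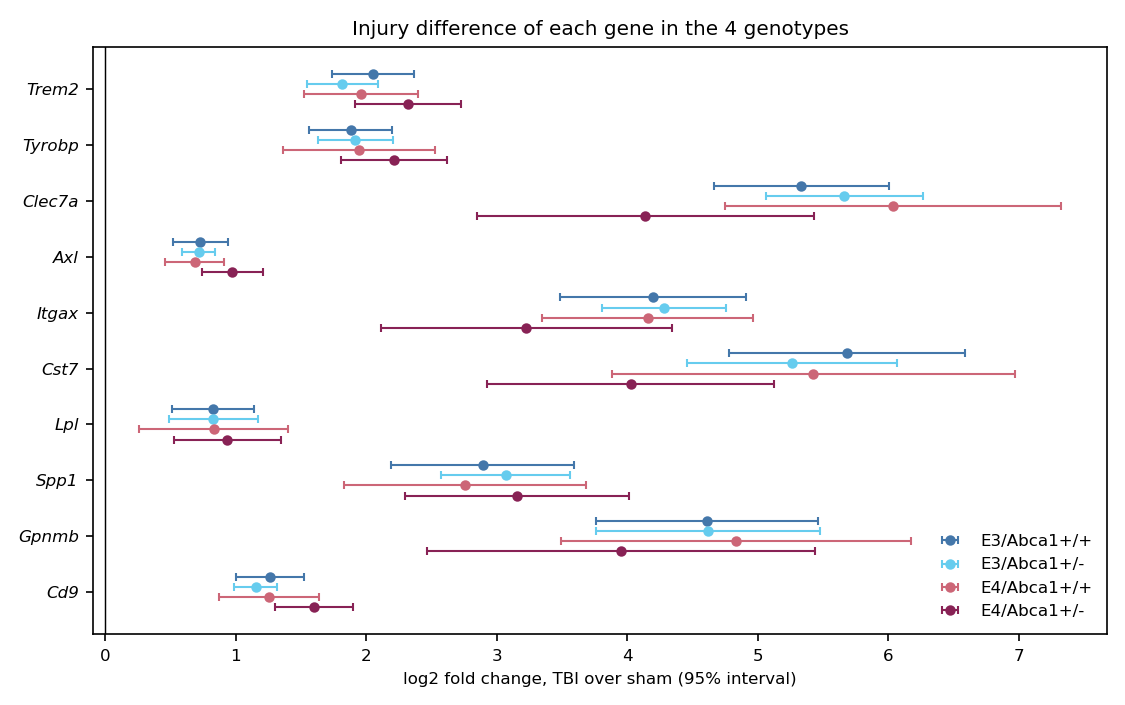
Log2 fold change of TBI over sham (horizontal axis) with 95% intervals for each gene in the 4 genotypes. All 40 intervals lie above 0, and the estimates run from 0.69 (Axl) up to 6.03 (Clec7a), both with E4/Abca1+/+, and the E4/Abca1+/- values of Clec7a, Itgax, Cst7 and Gpnmb include the high sham replicate 2.

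Averaged over the 4 genotypes, the injury difference was 5.31 (SE 0.29) for Clec7a, 5.12 (SE 0.30) for Cst7, 4.52 (SE 0.32) for Gpnmb and 3.98 (SE 0.24) for Itgax on the log2 scale. These ranked 13th, 16th, 26th and 42nd of 15171 genes by size. Spp1 (2.98, SE 0.21) ranked 87th, Trem2 (2.05, SE 0.10) 178th and Tyrobp (2.0, SE 0.11) 189th, whereas Cd9 (1.33, SE 0.08) ranked 409th, Lpl (0.87, SE 0.11) 744th and Axl (0.79, SE 0.05) 835th. All 10 passed edgeR's test (largest adjusted p = 1.34e-09), as did 53.3% of all genes in either direction, the background also for the lists of other genes described after the levels. These averages include E4/Abca1+/- sham replicate 2. Without it the largest of the 10 values was 5.70 rather than 5.31, and ranks were not recomputed.

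Levels of different genes were compared per kilobase of merged exons from the GENCODE annotation of mm10. In TBI mice Tyrobp was highest, with 94.9 ± 37.0 CPM per kb (SD, n = 29), followed by Cd9 (83.7 ± 25.7), Spp1 (73.8 ± 47.0), Trem2 (41.5 ± 15.1), Gpnmb (30.2 ± 25.3), Axl (23.4 ± 4.80), Cst7 (11.9 ± 7.09), Lpl (11.4 ± 4.01), Clec7a (10.8 ± 6.49) and Itgax (2.36 ± 1.13). The differences among the first 3, and among Cst7, Lpl and Clec7a, were smaller than these SDs. In sham mice the order was led by Cd9 (32.4 ± 4.16 CPM per kb), Tyrobp (23.0 ± 5.14) and Axl (13.4 ± 0.889), and ended with Cst7, Clec7a and Itgax, each under 0.4 CPM per kb. Spp1, at 9.03 ± 4.45 CPM per kb in sham mice, stood next to Trem2 (9.73 ± 1.88) there.

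Other genes of the same program moved the same way. Of 24 further disease-associated genes measured, 23 were higher and 1 lower after TBI in the mean over genotypes (median log2 fold change 1.31). The lysosomal and antigen-presentation genes B2m (1.45, SE 0.07), H2-D1 (1.85, SE 0.10), Cd68 (2.28, SE 0.12) and Ctsz (1.61, SE 0.09) had the smallest p-values, and Ank, a phosphate transporter also found in neurons, was the exception (log2 fold change -0.07, SE 0.02). Among 21 partners and ligands of the 10 genes, 18 were higher and 2 lower (median 1.02), with Vav1 (1.54, SE 0.09) and Ptpn6 (1.84, SE 0.11), which act below immune receptors, and the integrin chain Itgb5 (1.00, SE 0.05) among the first, and Itgav (-0.18, SE 0.04) and Ptgfrn (-0.15, SE 0.06) lower. Of 10 transcription factors of these cells, 9 were higher and 1 lower (median 0.47). The myeloid factors Spi1 (1.64, SE 0.09), which encodes PU.1, Runx1 (1.86, SE 0.12) and Irf8 (1.71, SE 0.11) had the smallest p-values of this list, Mitf had 0.25 (SE 0.05), and Bhlhe40 was lower (-0.37, SE 0.05). The row of mouse Apoe is counted in the list, although these mice carry the human gene.

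Markers of other cells moved with injury too, and their part in the levels of the 10 genes was not tested. All 13 homeostatic microglia genes were higher after TBI (median log2 fold change 0.77), and their summed level was 412 to 616 CPM in sham and 700 to 1463 CPM in TBI mice. P2ry12 (0.40, SE 0.04) and Tmem119 (0.66, SE 0.04), which fall in single disease-associated microglia by the usual account, were also higher in the tissue. Of 9 border and infiltrating macrophage genes measured, 8 were higher (median 1.00), led by Ms4a7 (3.50, SE 0.26) and Ccr2 (2.68, SE 0.26), and their summed level was 5.01 to 22.4 CPM in sham and 6.97 to 49.0 CPM in TBI mice. Both neutrophil genes measured, S100a8 and S100a9, were higher, from at most 1.07 to at most 17.9 CPM in sum. All 7 astrocyte and all 5 fibroblast genes were higher (medians 0.56 and 0.74), and all 6 general neuron genes were lower (median -0.25). Of 6 cortical neuron genes 5 were lower and 0 higher (median -0.45), whereas of 6 hippocampal neuron genes 1 was lower and 1 higher (median -0.03). Plac8 was at 0 in 16 sham mice and S100a8 in 8, and no marker was at 0 in more than 1 TBI mouse.

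**Figure D3:**
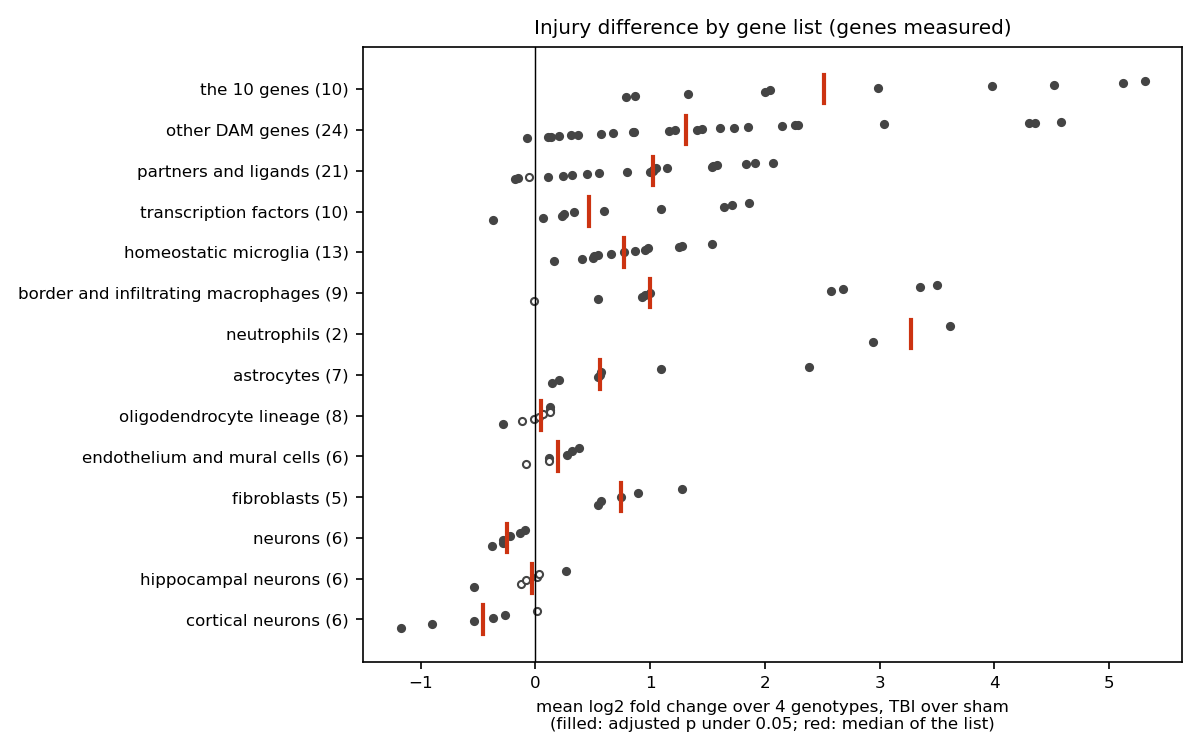
Mean log2 fold change of TBI over sham over the 4 genotypes (horizontal axis) for each gene of the 10 genes and of 13 marker lists, with the number measured in parentheses; filled points passed the threshold and red bars are medians. The median was 2.52 for the 10 genes, 1.31 for the other disease-associated genes and 0.77 for homeostatic microglia.

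Set against the homeostatic list, the 10 genes differed in how far they moved. The log2 fold changes of Axl (0.79) and Lpl (0.87) were near that of the median homeostatic gene (0.77). Relative to the mean log2(CPM + 1) of the 13 homeostatic genes in the same mouse, Axl differed by 1.12 in sham and 1.10 in TBI mice with E3/Abca1+/+, and Lpl by -0.12 and -0.03. Over the same mice Clec7a moved from -4.21 to -1.21, Gpnmb from -2.34 to 0.97, Cst7 from -4.51 to -2.02, Itgax from -4.26 to -2.40 and Spp1 from -0.78 to 1.13. Trem2 (-1.30 to -0.12) and Tyrobp (-0.92 to 0.11) shifted by close to 1 unit. The 1 added to CPM shrinks the shifts of Clec7a, Cst7 and Itgax, whose sham medians in these mice were 0.452, 0.116 and 0.361 CPM. Their shifts on this scale are therefore smaller than their log2 fold changes and do not rank the genes. Differences between genes of this kind were not tested.

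**Figure D4:**
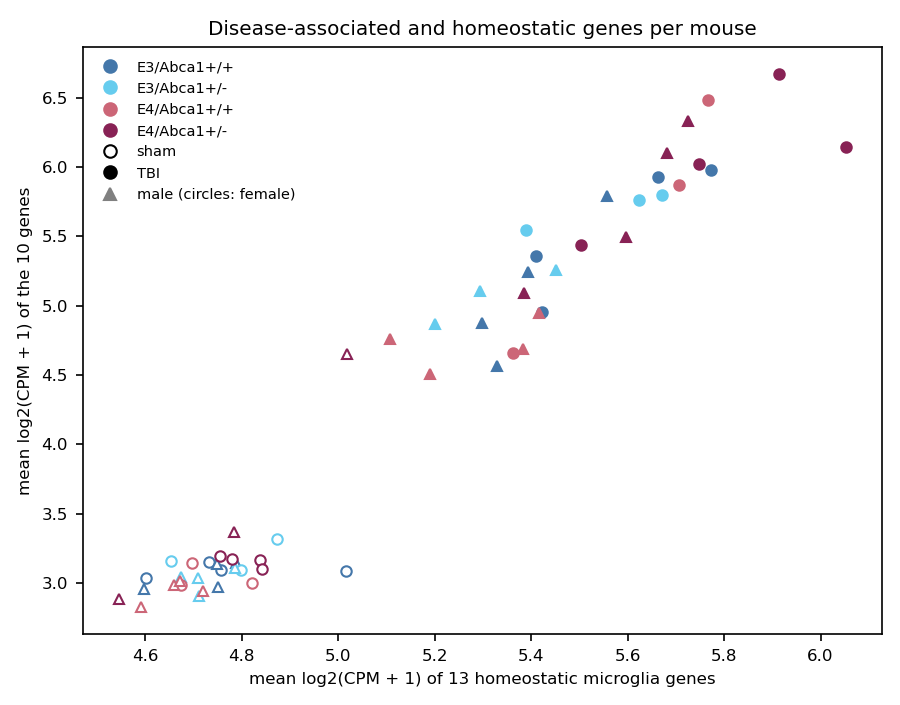
Mean log2(CPM + 1) of the 10 genes (vertical axis) against that of 13 homeostatic microglia genes (horizontal axis), 1 point per mouse, with open symbols for sham and filled for TBI. Sham mice sit at 2.82 to 3.37 on the vertical axis except for E4/Abca1+/- replicate 2 at 4.65, and TBI mice at 4.51 to 6.67.

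Injured E4/Abca1+/- mice had the highest mean of the 4 TBI groups for each of the 10 genes, but against E4/Abca1+/+ TBI mice no gene passed the threshold. The share of all genes with this order was not computed. Levels of the 10 genes go up and down together in injured mice (median r 0.84). A direction shared by all 10, here or in the comparisons below, is therefore not 10 separate observations. The log2 differences between Abca1+/- and Abca1+/+ were 0.26 to 1.05 (median 0.69, median of all genes 0.00). For Itgax the E4/Abca1+/- TBI mice had 6.80 CPM at the lowest, 15.0 at the median and 24.5 at the highest, and E4/Abca1+/+ TBI mice 3.36, 5.92 and 14.1 CPM. The difference was 1.05 (95% interval 0.45 to 1.66, adjusted p = 0.0769 in edgeR's test), with 5 of 8 mice above every E4/Abca1+/+ TBI mouse. This was the most of the 10 genes. The others had 0 (Cst7) to 3 (Trem2) of 8 such mice, and the share of all genes was not computed. For Trem2 the levels were 33.7, 65.3 and 85.4 CPM against 21.7, 35.4 and 66.9 CPM, a difference of 0.70 (0.22 to 1.17, adjusted p = 0.116 in edgeR's test). Tyrobp (0.74, 0.19 to 1.29), Clec7a (0.92, 0.07 to 1.76) and Cd9 (0.51, 0.11 to 0.91) had intervals above 0 before adjustment, whereas those of Gpnmb (0.91, -0.31 to 2.13), Spp1 (0.68, -0.26 to 1.61), Cst7 (0.61, -0.29 to 1.50), Lpl (0.48, -0.07 to 1.03) and Axl (0.26, -0.02 to 0.54) included 0.

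Thus 0 of the 10 genes were called in edgeR's test of Abca1+/- against Abca1+/+ in injured APOE4 mice, against 1.39% of all genes, and 5 had an unadjusted p under 0.05, against 18.2% of all genes. DESeq2's Wald test called 1 (Itgax, adjusted p = 0.00960), and a single fit over all 58 mice called 4 (Itgax, Trem2, Tyrobp and Cd9). A single mouse decided much of this. Without E4/Abca1+/+ TBI replicate 6, the female at 52.4 CPM for Clec7a and 365 CPM for Gpnmb, edgeR's test called 5 genes (Clec7a, Itgax, Trem2, Tyrobp and Cd9), with differences of 0.71 to 1.32. Without E4/Abca1+/- TBI replicate 2 it called 1 (Itgax), and without replicate 8 it called 0. After thinning every library to the lowest total the differences were 0.24 to 1.09 (median 0.64), with 0 called in edgeR's test and 5 at an unadjusted p under 0.05. The 1.39% of all genes belongs to edgeR's fit with all mice of the 2 groups, and no such share is given for the other fits. The homeostatic microglia genes also stood higher in the E4/Abca1+/- TBI mice, at 872 to 1463 CPM in sum against 700 to 1246 CPM in E4/Abca1+/+ TBI mice, with 0 of 13 called (median difference 0.29). With the homeostatic mean as a covariate the differences of the 10 genes were -0.14 to 0.53 (median 0.04), and none was called. That mean goes up and down with the 10 genes in injured mice, so the covariate fit compares a different quantity. Other disease-associated genes had a median difference of 0.55, with 0 of 24 called.

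In injured APOE3 mice the same comparison gave differences between -0.21 (Cst7) and 0.43 (Itgax) with a median of -0.01. For Clec7a the difference was 0.03 (95% interval -0.47 to 0.53) and for Trem2 0.06 (-0.31 to 0.43). No gene was called by edgeR (0.178% of all genes) or DESeq2, and 0 had an unadjusted p under 0.05 (8.99% of all genes). Whether the Abca1 difference itself depended on the isoform among TBI mice was tested as an interaction. It was positive for all 10 genes, from 0.25 (Axl) to 1.03 (Gpnmb), with wide errors: 0.71 (SE 0.34) for Tyrobp, 0.54 (SE 0.26) for Cd9 and 0.62 (SE 0.31) for Trem2. None was called by edgeR (0.00659% of all genes, smallest adjusted p = 0.477) or DESeq2, and 2, Tyrobp and Cd9, had an unadjusted p under 0.05 (10.2% of all genes). That number was 0 without E4/Abca1+/- TBI replicate 8 and 0 after thinning every library to the lowest total, 1 in DESeq2's test, 3 in the single fit and 5 with sex as a covariate, with 0 called in each.

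Comparing isoforms among injured mice, APOE4 exceeded APOE3 in Abca1+/- mice for all 10 genes, by 0.20 to 1.11 on the log2 scale. Only Cd9 was called higher (1 of 10 genes, against 1.10% of all genes). It had 93.4 CPM at the lowest, 137 at the median and 171 at the highest in E4/Abca1+/- TBI mice and 76.4, 89.1 and 110 CPM in E3/Abca1+/- TBI mice, and 6 of 8 mice with APOE4 lay above all 6 with APOE3. The other genes had 3 (Spp1) to 5 (Clec7a among them) of 8 such mice, and the share of all genes was not computed. For Cd9 the difference was 0.50 (SE 0.13, adjusted p = 0.0428 in edgeR's test, 0.00386 in DESeq2's). It was 0.49 (adjusted p = 0.0573 in edgeR's test) after thinning every library to the lowest total and 0.48 (0.0591) without E4/Abca1+/- TBI replicate 8, so the call was lost in both. With the homeostatic mean as a covariate it was 0.21 (adjusted p = 0.404 in edgeR's test). That mean goes up and down with the 10 genes in injured mice (r 0.74 to 0.88). The covariate fit therefore compares a different quantity and is not a check of the call. Gpnmb (1.11, SE 0.51), Clec7a (0.84, SE 0.30), Cst7 (0.64, SE 0.30), Trem2 (0.52, SE 0.19) and Tyrobp (0.47, SE 0.17) had an unadjusted p under 0.05 together with Cd9, 6 genes in all (18.7% of all genes). The same E4/Abca1+/- TBI mice enter this comparison and the one with E4/Abca1+/+ mice. The homeostatic genes had a median difference of 0.23 with 1 of 13 called higher. In Abca1+/+ TBI mice the isoform difference was -0.24 to 0.09, with 0 genes called by edgeR (0.211% of all genes) or DESeq2 and 0 with an unadjusted p under 0.05 (7.20%).

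**Figure D5:**
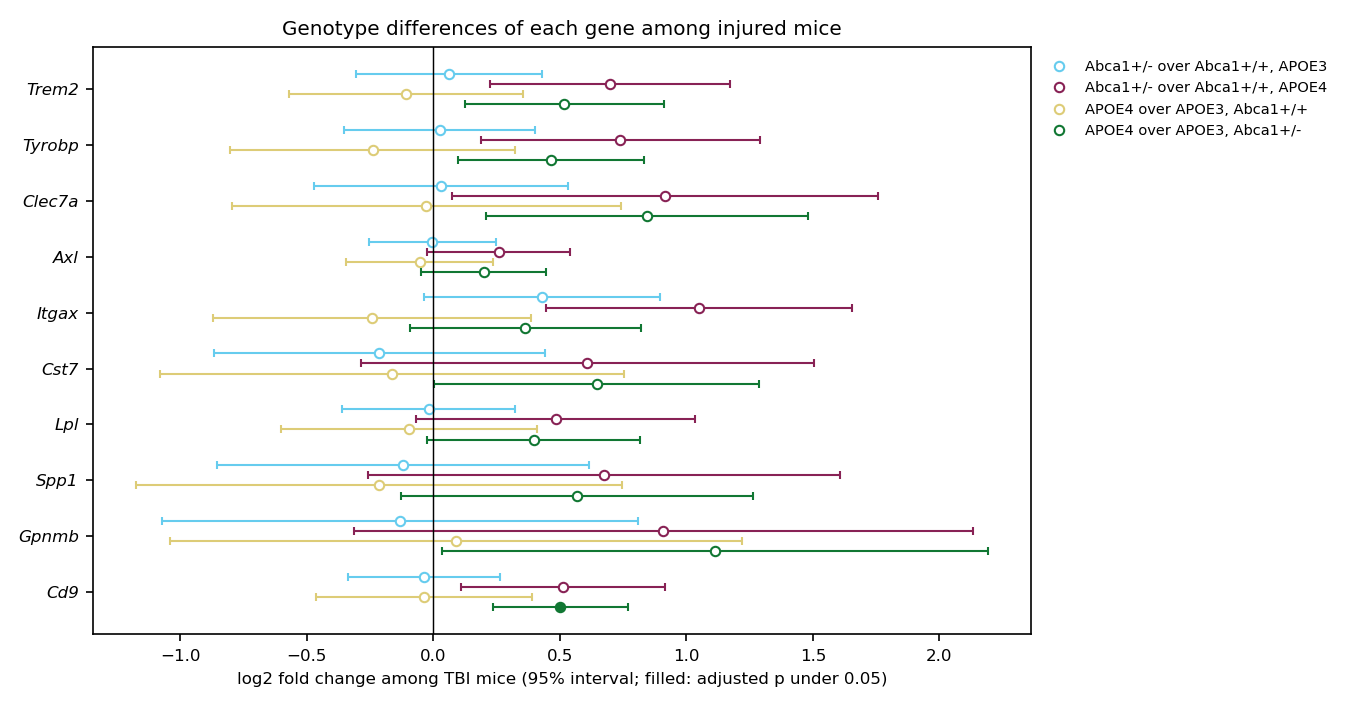
Log2 fold change between genotypes among TBI mice (horizontal axis) with 95% intervals for each of the 10 genes; filled points passed the threshold. The comparisons with E4/Abca1+/- mice lie right of 0 for all 10 genes, between 0.20 and 1.11, the other comparisons lie between -0.24 and 0.43, and only Cd9 (0.50) in APOE4 over APOE3 with Abca1+/- passed.

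In sham mice much of the genotype difference rested on a single mouse. Abca1+/- sham mice with APOE4 exceeded Abca1+/+ ones by 2.80 (SE 1.00) for Clec7a, 2.01 (SE 0.92) for Cst7, 1.97 (SE 0.79) for Itgax and 1.77 (SE 0.68) for Gpnmb. No gene was called by edgeR (0.903% of all genes) or DESeq2, and 6 had an unadjusted p under 0.05 (15.7%). Without E4/Abca1+/- sham replicate 2 these values were 1.30, 0.80, 0.71 and 0.38, Spp1 changed sign from 0.27 to -0.21, and 2 genes (Tyrobp and Trem2) had an unadjusted p under 0.05. That mouse had 9.37 CPM of Clec7a, 6.43 of Itgax, 3.75 of Cst7, 62.2 of Gpnmb and 47.0 of Spp1, against at most 1.43, 1.18, 0.983, 7.42 and 14.4 CPM in the other mice of its group. Other lists moved with them in this mouse. On the log2(CPM + 1) scale its means over the other disease-associated genes (5.50, others at most 4.96), the astrocyte genes (8.46, others at most 8.29), the transcription factors (3.84, others at most 3.76) and the partners and ligands (4.29, others at most 4.22) were the highest of all sham mice. Its mean over the cortical neuron genes (5.48, others at least 5.58) was the lowest. Its general neuron mean (9.63) was nearly level with the lowest of the others (9.64). Its homeostatic mean (5.02) was level with the next sham mouse (5.02), and its border macrophage mean (1.12) lay within the range of the others (0.588 to 1.29). The part of these cells in its levels was not tested. Among APOE3 sham mice, those with Abca1+/- had a mean Trem2 level of 12.4 ± 1.62 CPM (SD, n = 7) and those with Abca1+/+ 9.94 ± 0.774 CPM (n = 8), a log2 difference of 0.32 (SE 0.08, adjusted p = 0.0542 in edgeR's test, 0.0286 in DESeq2's and 0.0339 in edgeR's with sex as a covariate). It was the only gene with an unadjusted p under 0.05 there (16.5% of all genes), and edgeR called 0 (2.20%) and DESeq2 1. In edgeR's test it was 0.23 (adjusted p = 0.375) after thinning to the lowest total and 0.32 (adjusted p = 0.523) in the single fit.

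Between isoforms, sham mice with Abca1+/+ had differences of -0.72 (Clec7a) to 0.11 (Cst7), with 0 called by edgeR (0.349% of all genes) or DESeq2 and 1, Tyrobp (-0.30, SE 0.09), at an unadjusted p under 0.05 (8.75%). Its mean was 10.6 ± 1.59 CPM (SD, n = 7) with APOE4 against 13.2 ± 0.740 CPM (n = 8) with APOE3. In Abca1+/- sham mice Clec7a (2.33, SE 0.80), Cst7 (1.84, SE 0.72), Gpnmb (1.75, SE 0.62) and Itgax (1.39, SE 0.65) stood higher with APOE4 at an unadjusted p under 0.05 (4 genes, 23.2% of all genes), 0 were called by edgeR (5.13%) or DESeq2, and the single fit called Clec7a. All of these values again include E4/Abca1+/- sham replicate 2. Without it the differences were -0.13 to 0.83, with 1 gene at an unadjusted p under 0.05.

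Whether injury acted differently by genotype was tested directly, and no gene was called in edgeR's or DESeq2's tests. The Abca1 by injury term had 0 genes called in APOE3 (0.00% of all genes) and 0 at an unadjusted p under 0.05 (2.15%), and likewise 0 (0.00%) and 0 (4.84%) in APOE4. In APOE4 it ranged from -1.90 (SE 1.34) for Clec7a to 0.41 (SE 0.62) for Spp1, and without E4/Abca1+/- sham replicate 2 from -0.35 (SE 1.12) for Clec7a to 0.90 (SE 0.58) for Spp1, with 1 gene, Axl, at an unadjusted p under 0.05 and 0 called. The isoform by injury term had 0 called (0.00%) and 0 at an unadjusted p under 0.05 (2.12%) with Abca1+/+, and 0 (0.00%) and 2 (6.34%) with Abca1+/-. These 2 were Cd9 (0.47, SE 0.18) and Trem2 (0.53, SE 0.25), both with a larger injury difference in APOE4. In the isoform by injury term with Abca1+/-, Clec7a (-1.50, SE 0.90), Itgax, Cst7 and Gpnmb had negative values. Without sham replicate 2 all 10 were positive in that term (0.02 to 0.77), with 4 at an unadjusted p under 0.05 and 0 called.

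Male and female mice were also compared, a comparison chosen after the values were seen. Females had the higher mean for all 10 genes in 3 of the TBI groups and for 9 of 10 in E4/Abca1+/- TBI mice, Spp1 being the exception. Clec7a lay between 11.0 and 69.4 CPM in 14 injured females (median 29.4) and between 9.57 and 41.3 CPM in 15 injured males (median 14.7), so the sexes overlapped. With group as a term, the male minus female log2 difference was -0.84 (SE 0.20, adjusted p = 0.0356 in edgeR's test) for Clec7a, the only gene called (1 of 10, against 1.29% of all genes). For Gpnmb the median was 164 CPM in females and 41.9 CPM in males and the difference -1.25 (SE 0.34, adjusted p = 0.0562), for Cst7 -0.84 (SE 0.24, 0.0667), for Itgax -0.56 (SE 0.16, 0.0726), for Tyrobp -0.51 (SE 0.14, 0.0660) and for Lpl -0.50 (SE 0.14, 0.0576). In all, 9 genes had an unadjusted p under 0.05 (18.6% of all genes), and DESeq2 called 6. Without E4/Abca1+/- TBI replicate 8 edgeR called 2, Clec7a and Gpnmb. In E4/Abca1+/+ TBI mice the female mean of Clec7a was 31.8 CPM (n = 3) and the male mean 10.8 CPM (n = 4), and in E3/Abca1+/+ TBI mice 22.5 and 16.8 CPM (n = 4 each). Of 13 homeostatic microglia genes, 3 were called lower in injured males (median -0.18), and the 2 neutrophil genes had a median of -1.12 with 0 called. The part of these cells in the sex difference was not tested.

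Among sham mice the male minus female differences were -0.35 (Lpl) to 1.16 (Cst7), with 0 called by edgeR (1.88% of all genes) or DESeq2 and 4 at an unadjusted p under 0.05 (16.5%). Without E4/Abca1+/- sham replicate 2, a male, Lpl (-0.45, SE 0.09, adjusted p = 0.00452 in edgeR's test) and Tyrobp (-0.21, SE 0.06, 0.0357) were called lower in males, and Clec7a changed from 1.09 to -0.12. The injury by sex term was negative for all 10 genes, from -0.16 (Lpl) to -2.21 (Clec7a, SE 0.58). None was called by edgeR (0.00% of all genes, smallest adjusted p = 0.316) or DESeq2, and 8 had an unadjusted p under 0.05 (7.47%). Without that sham mouse 2 did, and the largest was -1.09.

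Within groups of injured mice, levels of the 10 genes went up and down together. With each value of log2(CPM + 1) taken relative to its group mean over 29 TBI mice, the 45 pairs had a median Pearson r of 0.84, from 0.63 (Lpl and Axl) to 0.94 (Cst7 and Tyrobp). These points share library and depth, so r is given as a description. Genes outside the 10 whose pattern was most like Trem2 were the complement genes C1qc (r = 0.97) and C1qb (0.96), and those most like Tyrobp were the cathepsin genes Ctsz (0.98) and Ctsb (0.97). Clec7a was most like Samsn1 (0.97) and Ctsd (0.96), Cst7 like Plek (0.97) and Cd22 (0.93), Itgax like Cd22 (0.87) and Dock2 (0.865), and Gpnmb like the lysozyme gene Lyz2 (0.96) and Ctsd (0.94). Spp1 was most like Timp1 (0.96) and Pdpn (0.95), Cd9 like Ctsz (0.95) and Lilrb4a (0.94), Axl like Sgpl1 (0.94) and Laptm5 (0.93), and Lpl like Ostf1 (0.93) and Surf4 (0.89). Spearman's rho for these 20 pairs lay between 0.83 and 0.98, and without E4/Abca1+/- TBI replicate 8 Pearson's r lay between 0.87 and 0.98. In the same mice r with the homeostatic mean was 0.74 (Itgax) to 0.88 (Tyrobp), and with the astrocyte mean 0.61 (Lpl) to 0.88 (Axl). With the border and infiltrating macrophage mean it was 0.54 (Lpl) to 0.83 (Spp1). For Spp1 and Gpnmb (0.83 each) this exceeded the r with the homeostatic mean (0.75 and 0.79), but the r with the astrocyte mean was higher still (0.87 each). With the neutrophil mean r was 0.55 (Itgax) to 0.79 (Spp1), for Spp1 also above the homeostatic one. With the general neuron mean r was -0.73 (Spp1) to -0.37 (Lpl).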

How the data were processed

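Bulk RNA sequencing of 58 mice was analysed from a single table of read counts per gene. The authors deposited these counts as raw whole numbers, made with featureCounts (Subread 1.5.0) on mm10 according to the submitters' processing notes. The gene annotation and strand setting used for counting are not given in the sources used here. Of 15173 rows, 2 without a gene were removed, and 23 symbols that a spreadsheet had turned into numbers were renamed from their gene identifiers. Total counts per mouse ranged from 4421308 to 37877346, and precision at low counts is limited by counting error.

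Counts were fitted across all 15171 genes with edgeR 4.0.16 (quasi-likelihood test, TMM factors 0.954 to 1.04, Benjamini-Hochberg adjustment, threshold 0.05) in R 4.3.3 with limma 3.58.1, using only the groups of each comparison. Interactions used their 4 groups, and the mean injury effect and the injury by sex term all 58 mice. The low-count filter removed 0 genes. CPM used the same factors, and log2 levels a pseudocount of 1. Alternatives were DESeq2 1.42.0, its size factors, other filters, sex as a covariate, a single fit, thinning to the lowest total, the homeostatic mean as a covariate and leaving out mice. Shares of all genes called are those of edgeR's first fits, and none are given for the alternatives. The scripts were tested on simulated data.

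Groups came from the labels, and replicate numbers only name mice, in accession order. Each library carries its own animal number in the labels and was taken as a replicate, so p-values measure the spread between mice. Among 183 pairs of mice within groups, 0 had identical counts, which shows only that no library was entered more than once. The 10 genes and the marker lists were chosen with earlier results of these data known. Named genes were the 10, at most 4 per other list with the smallest p of the mean injury effect plus any gene against its list, and the 2 most similar genes for each of the 10. Mitf, P2ry12 and Tmem119 were named in addition, after their values were seen.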

Additional observations from a re-analysis of the deposited data

Results flagged for a closer look

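The 10 genes in 8 groups gave 80 sets of values in which the highest or lowest mouse was compared with the others by Dixon's criterion. A gap wider than the 95% critical value was found in 17, of which 16 were in sham groups. Chance alone flags about 1 in 20 independent sets. These sets are not independent, because the 10 genes were measured in the same mice, so 17 cannot be set against that rate. E4/Abca1+/- sham replicate 2 accounted for 9, being far above its group for Clec7a (9.37 CPM), Itgax (6.43 CPM), Cst7 (3.75 CPM), Trem2 (19.1 CPM), Tyrobp (24.6 CPM), Axl (65.9 CPM), Spp1 (47.0 CPM), Gpnmb (62.2 CPM) and Cd9 (60.4 CPM). E3/Abca1+/- sham replicate 6 lay above its group for Clec7a (1.01 CPM), Itgax (1.35 CPM), Cst7 (0.732 CPM) and Tyrobp (17.7 CPM). In E3/Abca1+/+ sham mice Trem2 was high in replicate 7 (11.6 CPM) and Cd9 in replicate 3 (44.8 CPM). Itgax was low in E4/Abca1+/+ sham replicate 4 (0.0 CPM). In that library 3 counts are 0.496 CPM, and the group median was 0.429 CPM, so this gap is one of very few counts. The single case among injured mice was Cst7 in E4/Abca1+/+ TBI replicate 6 (32.1 CPM, next 14.0 CPM).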

How the results depend on the processing

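Of 220 recomputed counts of called genes 207 were within 1.5 times the reported count, and of 2183 recomputed gene values 2097 kept direction and side of the threshold. Both tallies include the alternatives with other filters. These removed 0 genes and so repeat the first fit, and their agreement was fixed in advance. The cause of the exceptions was not tested. All 10 genes were called higher after TBI in every alternative except that 9 to 10 were called in E4/Abca1+/+ mice when 1 mouse was left out. For Abca1+/- against Abca1+/+, DESeq2 called 1 and sex as a covariate 1 in APOE3 sham mice, and in APOE4 TBI mice DESeq2 called 1, the single fit 4 and fits without 1 mouse 0 to 5. For APOE4 against APOE3 with Abca1+/-, the single fit called 1 in sham mice, and in TBI mice thinning, the homeostatic covariate and leaving out E4/Abca1+/- TBI replicate 8 each called 0. For males against females, DESeq2 called 6 and the fit without that mouse 2 in TBI mice, and the fit without E4/Abca1+/- sham replicate 2 called 2 in sham mice.

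The homeostatic covariate changes what is compared, so values turned by it are listed but do not show dependence on processing. Signs turned for 53 gene values, none of them called. With the homeostatic covariate these were Cst7 (-0.14), Lpl (-0.0014), Axl (-0.051) and Gpnmb (-0.12) in the Abca1 comparison of APOE4 TBI mice, Lpl (0.044), Axl (0.069), Spp1 (0.14), Gpnmb (0.10) and Cd9 (0.035) in that of APOE3 TBI mice, Itgax (-0.045), Cst7 (-0.076), Lpl (-0.023), Axl (-0.082), Spp1 (-0.033) and Gpnmb (-0.050) in the isoform comparison of Abca1+/- TBI mice, and Clec7a (0.037), Axl (0.030) and Cd9 (0.038) in that of Abca1+/+ TBI mice. Without E4/Abca1+/- sham replicate 2 they were Spp1 (-0.21) in the Abca1 comparison of APOE4 sham mice, Trem2 (-0.13), Tyrobp (-0.014), Spp1 (-0.0044) and Cd9 (-0.060) in the isoform comparison of Abca1+/- sham mice, Clec7a (-0.12), Itgax (-0.14), Trem2 (-0.089) and Gpnmb (-0.37) between sham males and females, Itgax (0.36, against -0.94 without E4/Abca1+/- TBI replicate 8) and Gpnmb (0.55, against -0.84) in the Abca1 by injury term of APOE4, and Clec7a (0.057, against -1.58), Itgax (0.26, against -1.05), Cst7 (0.021, against -1.26) and Gpnmb (0.77, against -0.62) in the isoform by injury term with Abca1+/-. After thinning they were Clec7a (0.35), Tyrobp (-0.0016) and Lpl (0.092) in the Abca1 comparison of APOE3 sham mice, Cst7 (-0.86) and Cd9 (0.030) in the isoform comparison of Abca1+/+ sham mice, Clec7a (0.050) in that of Abca1+/+ TBI mice, Clec7a (-0.26), Itgax (-0.27) and Gpnmb (0.099) in the Abca1 by injury term of APOE3, and Itgax (0.25), Cst7 (0.86) and Trem2 (0.016) in the isoform by injury term with Abca1+/+. With sex as a covariate they were Tyrobp (-0.016) in the Abca1 by injury term of APOE3, Lpl (0.019) in the Abca1 comparison of APOE3 sham mice, Gpnmb (-0.095) in the isoform comparison of Abca1+/+ TBI mice and Gpnmb (-0.0087) in the isoform by injury term with Abca1+/+. DESeq2 turned Axl (0.00061) in the Abca1 comparison of APOE3 TBI mice, Clec7a (0.012) in the isoform comparison of Abca1+/+ TBI mice and Lpl (0.0036) in the isoform by injury term with Abca1+/+, where its size factors in edgeR gave Lpl 0.00037. No paired analysis was possible because the labels give the mice no shared replicate numbers. Abca1 status goes with sequencing depth. Thinning to the lowest total equalises depth alone, and the part of depth in the Abca1 differences was not tested in another way.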
